A study of Mus musculus with 4 samples.

Results

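The replication histone genes are the genes that encode the histones H1, H2A, H2B, H3 and H4 made during DNA replication. They were taken as every gene of the count tables whose symbol begins with Hist1h, Hist2h, Hist3h or Hist4h, which gave 67 of 32285 genes: 6 H1, 18 H2A, 18 H2B, 12 H3 and 13 H4. Of these, 54 lie on chromosome 13, 10 on chromosome 3, 2 on chromosome 11 and 1 on chromosome 6. UMIs (unique molecular identifiers, counted per captured transcript) were found for 65 of them in each of the 2 groups, and Hist1h2aa and Hist1h2ba were at 0 in both.

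Cells came from tumours that grew under the skin of B6C3F1 mice, aged 6 to 8 weeks, after injection of 1000000 cells of OV2944-HM1, a mouse ovarian cancer line. The control group received vehicle and the IL_27 group 100 ng of recombinant mouse interleukin 27 per mouse, both injected at the tumour from the day of implantation and every other day until collection on day 14. Cells were then enriched with beads for CD45, which is carried on the surface of leukocytes. Of the 4 entries in the labels 2 belong to each group, yet a single matrix holds each group's cells without saying which entry a cell came from. Each group therefore counts as n = 1, and no test was made. Intervals are exact, at 95%, and cover counting error only, not the spread between mice.

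Each nucleosome wraps DNA around a core of H2A, H2B, H3 and H4, and H1 binds the linker DNA between cores. The replication histone genes stand in clusters, are switched on together as cells enter S phase through the factor NPAT, and most of their transcripts end in a stem-loop bound by SLBP in place of a poly(A) tail. Some members also give polyadenylated transcripts in cells that do not divide. The kit used here copies RNA from a primer that pairs with poly(A), so a level is that of the molecules the primer reached and not of all histone RNA.

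The stem-loop was searched for in the annotated transcripts (GENCODE M21, build GRCm38) as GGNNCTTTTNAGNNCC with a paired stem of 6 bases and a loop of 4. It was present for 44 of the 67 members, in 6 forms. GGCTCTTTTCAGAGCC was the form in 26 members, and the others differed in the stem, the loop or both. The elements of members on which the results below turn are shown 5′ to 3′, with the stem arms in capitals.
Hist1h1c: aaaGGCTCTtttcAGAGCCaccac
Hist1h2ae: aaaGGCTCTtttcAGAGCCattca
Hist1h3c: aaaGGCTCTtttaAGAGCCaccta
Hist1h4d: aaaGGCCCTtttcAGGGCCactac
Hist1h4i: aaaGGCCCTttttAGGGCCaccac
The annotated transcripts of 23 members, Hist1h1b among them, held no such element. Some of these annotations are short, such as Hist1h4k at 312 bases and Hist1h2ak at 393. An annotation that stops before the end of the RNA cannot hold the element, so the search does not show that these genes lack it.

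Promoters (RefSeq, GRCm38.p6) matched 62 members, and the 250 bases before each start were searched on both strands. CCAAT was in 82.3% of them, against 33.8% of all 32851 promoters of the table. It was in every H1, H2A and H2B promoter matched, in 8 of 10 H3 promoters and in 3 of 12 H4 promoters. TATAAA was in 46.8% against 12.4%. AAACACA, an element named for H1 genes, was in 5 of 6 H1 promoters against 6.25% of all promoters. ATTTGCAT, the octamer, was in 7 of 18 H2A and 6 of 16 H2B promoters against 1.60%, and in none of the H1, H3 or H4 promoters matched. A match is a description of the letters and not of a factor's binding. The 250 bases before the start of 3 H1 genes, 1 H2A gene and 1 H4 gene are shown 5′ to 3′ on the gene's strand, with these 4 motifs in capitals in either orientation (CCAAT reads ATTGG on the other strand). They lie at chr13:23738557-23738806 (plus strand) for Hist1h1c, chr13:23622559-23622808 (minus strand) for Hist1h1e, chr13:21780626-21780875 (minus strand) for Hist1h1b, chr13:23571221-23571470 (minus strand) for Hist1h2ae and chr13:23581318-23581567 (plus strand) for Hist1h4d.
Hist1h1c: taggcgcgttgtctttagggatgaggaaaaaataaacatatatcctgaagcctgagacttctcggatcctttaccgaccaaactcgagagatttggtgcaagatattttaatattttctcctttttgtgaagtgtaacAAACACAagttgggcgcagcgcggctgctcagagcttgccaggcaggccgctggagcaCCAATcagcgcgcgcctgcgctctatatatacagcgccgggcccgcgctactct
Hist1h1e: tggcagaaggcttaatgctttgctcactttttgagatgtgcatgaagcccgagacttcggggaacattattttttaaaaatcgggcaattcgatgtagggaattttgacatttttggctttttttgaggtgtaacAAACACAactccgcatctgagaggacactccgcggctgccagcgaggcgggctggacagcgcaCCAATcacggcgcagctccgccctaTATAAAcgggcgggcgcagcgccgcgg
Hist1h1b: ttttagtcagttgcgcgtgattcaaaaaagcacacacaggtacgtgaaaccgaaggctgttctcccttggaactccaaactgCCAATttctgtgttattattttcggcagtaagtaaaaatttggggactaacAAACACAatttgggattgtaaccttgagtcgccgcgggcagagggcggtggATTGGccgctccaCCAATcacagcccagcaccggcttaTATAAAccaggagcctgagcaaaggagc
Hist1h2ae: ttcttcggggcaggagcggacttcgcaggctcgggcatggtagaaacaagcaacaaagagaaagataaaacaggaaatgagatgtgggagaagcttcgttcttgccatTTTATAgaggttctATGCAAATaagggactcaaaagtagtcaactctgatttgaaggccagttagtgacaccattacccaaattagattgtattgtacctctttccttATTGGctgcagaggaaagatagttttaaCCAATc
Hist1h4d: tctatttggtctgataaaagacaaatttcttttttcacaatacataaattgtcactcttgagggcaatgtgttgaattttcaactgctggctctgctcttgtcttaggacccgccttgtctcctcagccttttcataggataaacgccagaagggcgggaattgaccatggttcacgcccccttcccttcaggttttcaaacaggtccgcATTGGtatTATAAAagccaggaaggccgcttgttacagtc
The 3 H1 promoters carry AAACACA upstream of the CCAAT nearest the start. Those of Hist1h1e and Hist1h1b also hold TATAAA close to the start. Hist1h2ae holds the octamer beside TATAAA, both on the other strand, and Hist1h4d holds 1 CCAAT and 1 TATAAA. The octamer and TATAAA of Hist1h2ae also lie in the overlapping window of Hist1h2bg (chr13:23571150-23571399, plus strand), on that gene's strand. Windows of other H2A and H2B neighbours overlap too, such as those of Hist1h2ah and Hist1h2bk. A site in a shared window was counted for both genes, so the H2A and H2B counts above are not of separate sites.

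After filtering, 10617 control and 9990 IL_27 cells remained, with medians of 2408 and 1870.5 UMIs per cell and 53836151 and 43622148 UMIs in all. Histone genes gave 67900 UMIs in the control matrix (0.126% of all) and 51573 in the IL_27 matrix (0.118%). Levels are given in CPM, the UMIs of a gene per 1000000 UMIs of all genes in the same cells. The 2 matrices share 133 barcodes, a number that includes barcodes removed by the filters. Cell classes were set by UMIs of at least 3 of 10 marker genes, and are named T-marked, tumour-marked and so on. The largest classes were neutrophil-marked cells (5408 and 4511), macrophage-marked cells (1635 and 1442), T-marked cells (628 and 648), dendritic-marked cells (245 and 343) and tumour-marked cells (236 and 192). The labels call the cells lymphocytes, but T-marked cells were 5.92% of control and 6.49% of IL_27 cells, while tumour-marked cells remained after the CD45 enrichment. Between 3.82% (control T-marked) and 36.3% (control dendritic-marked) of the cells of these 5 classes stood at the limit of 3 markers.

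Cells with at least 1 UMI of Mki67 or Top2a, genes of dividing cells, held most of the histone UMIs. They were 10.4% of control cells (1106, interval 9.84% to 11.01%) and 9.96% of IL_27 cells (995, 9.38% to 10.6%), and held 29.1% and 31.3% of all UMIs but 63.0% and 71.4% of histone UMIs. Their summed histone level was 2733 CPM in control and 2700 in IL_27, against 658 and 492 in cells without a UMI of either gene. That is 4.16-fold (4.09 to 4.22) in control and 5.49-fold (5.38 to 5.59) in IL_27. Cells with Mki67 or Top2a were also deeper, with medians of 6342 against 2275 UMIs in control and 4936 against 1771 in IL_27. With every cell thinned to 1000 UMIs, which left out 1578 control and 1997 IL_27 cells, 4.58% and 4.99% of cells held a UMI of either gene and the folds were 5.03 and 6.40. Neutrophil-marked cells, which mostly no longer divide, held a UMI of either gene in 6.75% of control and 6.03% of IL_27 cells. Their median depths were 2228.5 and 1671 UMIs. In T-marked cells the shares were 32.6% and 28.4%, at 6096 and 4279 UMIs. Free RNA can place a UMI in a cell that does not make the transcript, and its part here was not tested.

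The fold between cells with and without Mki67 or Top2a differed between cell classes. T-marked cells gave 5332 CPM with and 605 without either gene in control (8.82-fold, 8.37 to 9.30), and 5508 and 585 in IL_27 (9.41-fold, 8.87 to 9.98). In tumour-marked cells the same values were 1932 and 1282 in control (1.51-fold, 1.46 to 1.56) and 1898 and 992 in IL_27 (1.91-fold, 1.84 to 1.99). Dendritic-marked cells lay between, at 4.02-fold and 6.21-fold, as did macrophage-marked cells at 2.70-fold and 3.85-fold. Neutrophil-marked cells gave 1.95-fold in control and 4.39-fold in IL_27, where 24 cells of at least 10000 UMIs held 2010 of the 2249 histone UMIs of the class in cells with either gene. NK-marked cells gave 9.93-fold and 7.96-fold, but 11 control and 18 IL_27 cells of the class had either gene, and 1 cell held 71.0% of those control histone UMIs. The class intervals of T-marked and tumour-marked cells did not overlap in either group, but they cover counting error only and not the spread between cells. Markers of other classes moved with the split. T-marked cells with Mki67 or Top2a held 282 (control) and 286 CPM (IL_27) of tumour markers, against 24.2 and 19.9 in T-marked cells without. Neutrophil-marked cells with either gene held 1424 and 954 CPM of tumour markers against 241 and 164 without, and 17856 and 19257 CPM of neutrophil markers against 37556 and 32078. Granule precursor markers stood at 2315 against 74.7 CPM in IL_27 and at 55.8 against 108 in control in the same class. The part of these markers in the folds was not tested.

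**Figure D1:**
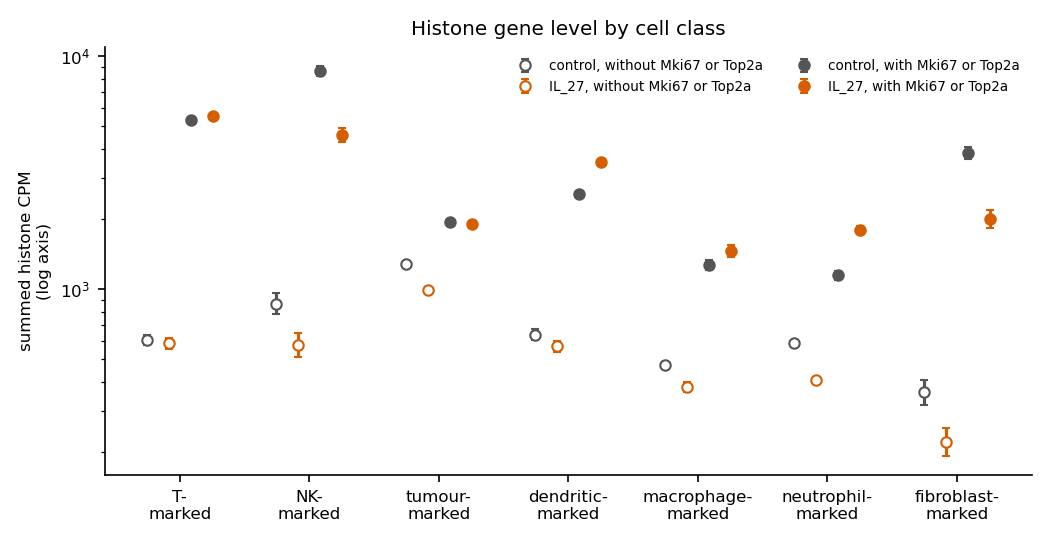
Summed level of the 67 histone genes, in CPM on a log axis, for 7 cell classes in the control and IL_27 groups. Filled points are cells with a UMI of Mki67 or Top2a, open points are cells without, and bars are exact 95% counting intervals. T-marked cells stand at 5332 and 5508 with either gene and at 605 and 585 without, while the points of tumour-marked cells lie closer together.

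Among T-marked cells the level was carried by a minority of very high cells. In control, the median cell with Mki67 or Top2a had 855 CPM of histone genes and the 90th percentile was 13482. Of those 205 cells, 58 (28.3%) exceeded 5000 CPM, against 0 of 423 T-marked cells without either gene, whose highest cell had 4143. In IL_27 the median was 719, the 90th percentile 13830, and 32 of 184 cells (17.4%) exceeded 5000, against 0 of 464 without either gene, whose highest cell had 4428. T-marked cells over 5000 were thus seen in both groups within the cells that held Mki67 or Top2a. The other T-marked cells of that set overlapped with the T-marked cells without either gene. In dendritic-marked cells with either gene, 6 of 63 control and 16 of 83 IL_27 cells exceeded 5000. Without either gene they were 0 of 182 and 1 of 260. Neutrophil-marked cells over 5000 were 11 of 365 and 6 of 272 with either gene, and 46 of 5043 and 9 of 4239 without. Macrophage-marked cells over 5000 were 10 of 191 and 9 of 149 with, and 15 of 1444 and 8 of 1293 without. For tumour-marked cells these were 7 of 84 and 8 of 91, and 5 of 152 and 0 of 101. The limit of 5000 was chosen after the values were seen. T-marked cells with Mki67 or Top2a that had more UMIs of a fixed S phase list than of a fixed G2 and M phase list stood at 4539 CPM, against 7928 in the others, in control (168 and 37 cells), and at 6046 against 3914 in IL_27 (140 and 44 cells). The order was opposite in the 2 groups, and 1 cell held 32.4% of the histone UMIs of the last set.

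**Figure D2:**
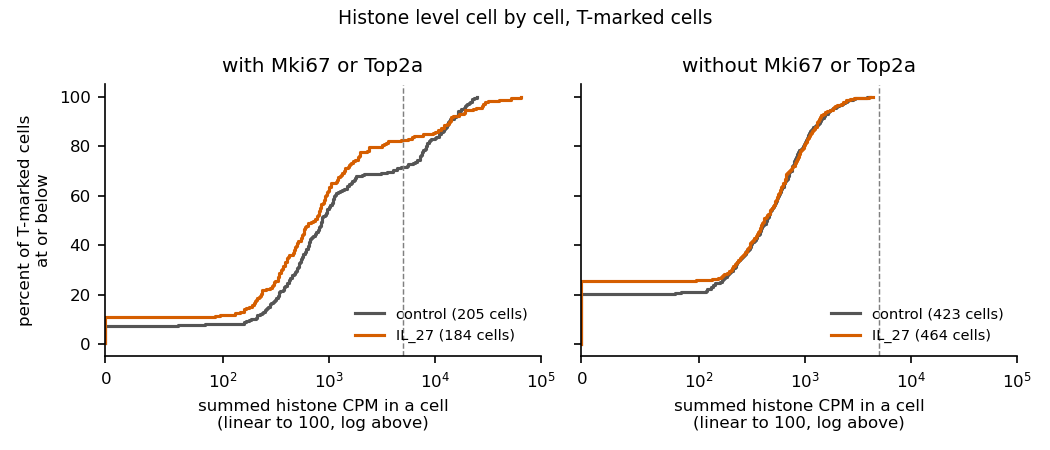
Cumulative percent of T-marked cells (vertical axis) at or below a summed histone level in CPM (horizontal axis, linear to 100 and log above), for cells with Mki67 or Top2a (left) and without (right). The curves of the control and IL_27 groups lie together at right and end below the dashed line at 5000, while at left 28.3% of control and 17.4% of IL_27 cells lie beyond it.

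Most members followed the summed level, and a few did not. In control, 46 of 60 members with at least 20 UMIs were at least 2-fold higher in cells with Mki67 or Top2a, against 16.7% of all genes tested, and 1 was at least 2-fold lower, against 8.26%. In IL_27 the counts were 48 of 59, against 17.6%, and 0 of 59, against 9.98%. The median log2 difference of all genes between these cells was 0.35 in control and 0.29 in IL_27. Within T-marked cells, 47 of 48 members were at least 2-fold higher in control, against 7.76% of genes, and 46 of 50 in IL_27, against 9.38%. None was at least 2-fold lower there, against 4.72% and 4.34% of genes. In tumour-marked cells, 23 of 40 members were at least 2-fold higher in control, against 5.77%, and 4 lower, against 1.12%; in IL_27 they were 25 of 39, against 6.21%, and 3, against 1.47%. In macrophage-marked cells, 21 of 34 were higher in control, against 5.99%, and 1 lower, against 2.17%, with 18 of 26, against 6.43%, and 3, against 4.13%, in IL_27. In neutrophil-marked cells the background was itself high: 21 of 41 members were higher in control, against 31.2% of genes, and 2 lower, against 3.63%, with 24 of 34, against 27.3%, and 0, against 4.94%, in IL_27.

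The linker histones split into 2 kinds. Hist1h1b (H1.5 in the usual naming, all of its 90-base stretches unique in the annotated transcripts) stood at 249 CPM with and 10.2 without Mki67 or Top2a in control, a fold of 24.4, and at 162 and 6.04 in IL_27, a fold of 26.8. Hist1h1a, Hist1h1d and Hist1h1e also had high folds in control, of 24.9, 20.02 and 9.93, and in IL_27, of 25.1, 14.3 and 9.29. When each cell counted equally, the control folds of Hist1h1b, Hist1h1a, Hist1h1d and Hist1h1e were lower, at 11.1, 10.00, 10.9 and 5.62, as were those of Hist1h1b and Hist1h1a in IL_27, at 16.5 and 12.6. Hist1h1c (H1.2), the member with the most UMIs, stood at 298 and 180 in control, a fold of 1.65, and at 218 and 138 in IL_27, a fold of 1.58, with 1.37 and 1.40 for equal weights. The stem-loop and AAACACA shown above were present in Hist1h1c as in Hist1h1e, whose folds differed. These folds pool classes whose shares differ between cells with and without Mki67 or Top2a. T-marked cells were 205 of 1106 control cells with either gene and 423 of 9511 without. Within T-marked cells the lowest fold of the 5 H1 genes tested, Hist1h1c among them, was 2.78 in control and 2.45 in IL_27.

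The core histones differed by type and by gene. Among H2A genes, 13 of 16 were at least 2-fold higher in each group. Hist1h2af had the highest fold of the named H2A genes, 44.0 in control and 54.9 in IL_27, and Hist1h2ap and Hist1h2ae had 31.3 and 20.7 in control and 36.5 and 32.8 in IL_27. That order depended on the weighting: with each cell counted equally, Hist1h2af had 8.50 in control, below Hist1h2ak (15.2), Hist1h2ap (10.1), Hist1h2ao (10.01) and Hist1h2ae (9.78), and 22.3 in IL_27, below Hist1h2ap (24.1), Hist1h2ak (23.4), Hist1h2ae (22.5) and Hist1h2ao (22.5). Hist1h2af, Hist1h2ap and Hist1h2ao have 33.5%, 7.63% and 7.16% unique stretches, against 68.1% for Hist1h2ae and 83.6% for Hist1h2ak. Reads shared with near-identical H2A copies therefore make the order of single genes uncertain. Hist2h2aa1, on chromosome 3, was lower in cells with Mki67 or Top2a, at 29.4 against 43.9 CPM in control (0.67-fold) and 28.3 against 36.4 in IL_27 (0.78-fold). Among H2B genes, Hist2h2bb and Hist1h2bj had folds of 8.60 and 6.82 in control, while Hist1h2bc had 1.13 and Hist1h2be 0.73. In IL_27 those 4 folds were 14.0, 14.1, 1.53 and 1.14. Equal weights gave Hist1h2bj 3.36 and 6.98, Hist2h2bb 8.34 in IL_27, and Hist1h2be 1.14 in control. Hist1h2be spans a long gene that overlaps Hist1h1e on the same strand, so reads of the 2 may not be told apart. Among H3 genes, Hist1h3b and Hist1h3c had 11.3 and 10.7 in control and 48.3 and 33.9 in IL_27, against 6.68 and 7.93 in control and 11.7 and 15.97 in IL_27 with equal weights. The lowest fold of all members was also that of an H3 gene, named here after its value was seen: Hist2h3c1, on chromosome 3, stood at 1.09 CPM with and 2.30 without Mki67 or Top2a in control (0.47-fold, 17 and 88 UMIs), and at 2.13 and 2.43 in IL_27. In IL_27 the lowest was its neighbour Hist2h3c2, at 1.54 and 2.30 CPM (0.67-fold). Hist2h3c1 has 0% unique stretches, Hist2h3c2 38.0% and Hist2h2aa1 11.5%. Reads shared with near-identical copies make the values of these 3 genes uncertain, and those of Hist2h3c1 cannot be assigned to that gene alone. No H4 gene with at least 20 UMIs reached 10-fold in either group: Hist1h4d had 4.15 and 8.90, Hist1h4i 1.38 and 1.78. These folds too pool all classes, and the part of the class mix in them was not tested. Within T-marked cells the lowest folds of members tested were 2.28 (H2A), 1.66 (H2B), 5.42 (H3) and 2.14 (H4) in control. In IL_27 they were 1.70, 1.11, 4.11 and 1.78. The plot of folds by gene, over all classes, shows low members of the H1, H2A, H2B and H4 types next to the high ones. The 2 low H3 genes have too few UMIs to be among its genes.

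**Figure D3:**
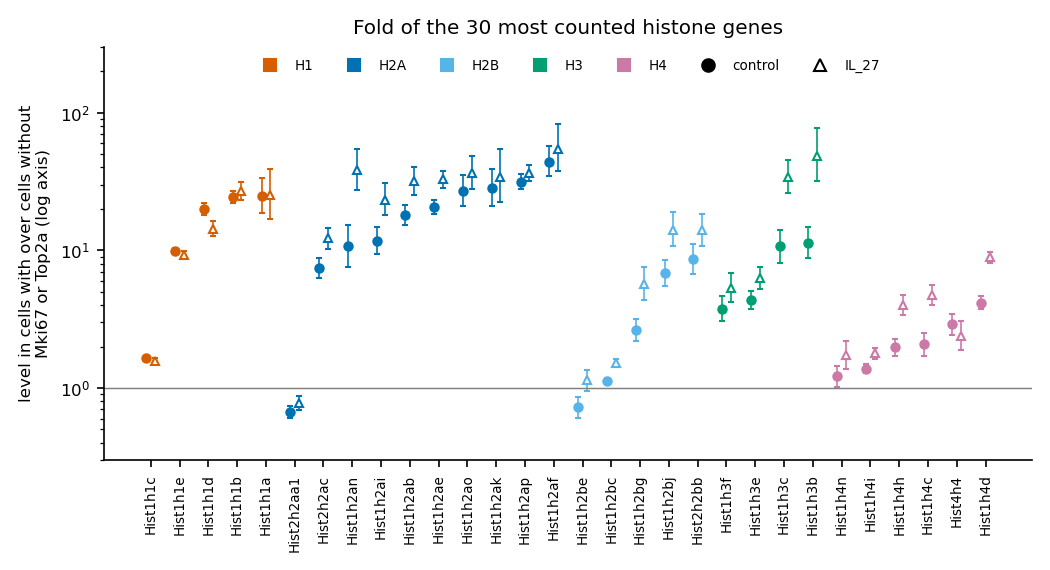
Level in cells with over cells without Mki67 or Top2a (log axis) for the 30 histone genes with the most UMIs, in control (filled circles) and IL_27 (open triangles), coloured by histone type, with exact 95% counting intervals. Hist1h1c, Hist2h2aa1, Hist1h2be, Hist1h2bc and Hist1h4i lie between 0.67 and 1.78, while Hist1h2af stands at 44.0 and 54.9.

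The median fold of the members tested was 5.49 in control and 7.54 in IL_27, and other lists were counted in the same way, against the 16.7% and 17.6% of all genes at least 2-fold higher. Of 40 S phase genes, 37 in control and 36 in IL_27 were at least 2-fold higher with Mki67 or Top2a, with median folds of 5.80 and 5.11, and of 25 G2 and M phase genes 24 in each group, with medians of 36.3 and 29.8. These lists mark the same cells that the split selects. Of 20 genes for histone transcription and 3′ processing, 6 and 4 were at least 2-fold higher, the latter near the share of all genes, and 1 in each group at least 2-fold lower, with medians of 1.73 and 1.57. Npat, the activator of histone transcription, had folds of 2.23 and 2.31, Casp8ap2, a partner of NPAT, 2.25 and 2.01, and Slbp, the stem-loop binding protein, 1.83 and 1.56. Of 24 chaperone and chromatin assembly genes, 14 and 13 were at least 2-fold higher, among them Rbbp7, a subunit of chromatin assembly complexes (2.79 in both), and Nap1l1, an H2A-H2B chaperone (2.20 and 2.19). Of 11 histone genes outside the replication set, 6 in each group were at least 2-fold higher. H2afz, the variant H2A.Z, had 2.21 and 2.23 and H1f0, a linker histone of resting cells, 3.201 and 3.44, while H3f3b and H3f3a, which encode H3.3, had 0.94 and 0.77 in control and 1.01 and 0.81 in IL_27.

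Between the groups, the histone level summed over all classes differed little in all cells and in cells with Mki67 or Top2a. The mix of histone types differed more. Over all cells the summed level was 1261 CPM (1252 to 1271) in control and 1182 (1172 to 1193) in IL_27, a ratio of 0.94 (0.93 to 0.95). In cells with Mki67 or Top2a the ratio was 0.99 (0.97 to 1.00), and in cells without either it was 0.75 (0.73 to 0.76). Counting each cell equally, the ratio in cells with either gene was 0.87. In single classes of those cells the ratio of sums was 1.03 in T-marked, 0.98 in tumour-marked and 1.38 in dendritic-marked cells. Neutrophil-marked cells gave 1.56, or 0.43 with equal weights. NK-marked cells (11 and 18) stood at 8591 CPM in control and 4584 in IL_27. Fibroblast-marked cells (10 and 10) stood at 3837 and 1998. H1 made up 47.5% of histone UMIs in control cells with Mki67 or Top2a and 32.3% in those of IL_27. In the same cells the ratio of IL_27 to control was 0.67 (0.66 to 0.69) for H1, 0.97 (0.93 to 1.01) for H2B, 1.26 (1.23 to 1.29) for H2A, 1.41 (1.33 to 1.49) for H3 and 1.62 (1.55 to 1.69) for H4. In cells without Mki67 or Top2a every type was lower in IL_27, with ratios from 0.61 for H2B to 0.89 for H2A. Single classes without either gene went the other way: T-marked cells gave 1.26 (1.03 to 1.54) for H2A, 1.41 (1.03 to 1.94) for H3 and 1.69 (1.38 to 2.07) for H4, and dendritic-marked cells 1.37 (1.11 to 1.70) for H4. None of these differences has a replicate check.

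In cells with Mki67 or Top2a of all classes together, the direction for H3 depended on how cells were weighted, and the difference in H4 was seen with one weighting only. A sum over cells gives deep cells more weight. When each cell counted equally, the ratios in cells with Mki67 or Top2a were 0.67 for H1, 1.21 for H2A, 0.88 for H3 and 1.00 for H4. With cells of 10000 UMIs and more (421 control, 337 IL_27), the ratios of sums were 0.67 for H1, 1.26 for H2A, 1.48 for H3 and 1.73 for H4. From 2000 to under 10000 UMIs (510 and 421 cells) they were 0.71, 1.28, 1.02 (0.84 to 1.24) and 1.03 (0.88 to 1.20). With cells under 2000 UMIs (175 and 237) they were 0.47, 0.82 (0.65 to 1.02), 0.44 and 0.51. H1 was thus lower in IL_27 in each depth range, while H2A, H3 and H4 were not higher in each. These depth ranges were chosen after the values were seen. Classes differed in the lowest range. Neutrophil-marked cells there (97 and 113) had equal-weight means of 587 CPM in control and 16.2 in IL_27 for H3, and 696 and 108 for H4. Macrophage-marked cells (31 and 39) had 66.5 and 144 for H3, and 270 and 199 for H4. The part of each class in the equal-weight ratios was not tested.

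Within T-marked, tumour-marked and dendritic-marked cells with Mki67 or Top2a, H1 was lower and H2A, H3 and H4 higher in IL_27 under both weightings. The ratios of sums in T-marked cells were 0.69 for H1, 1.31 for H2A, 1.41 for H3 and 2.18 (1.99 to 2.39) for H4, and with equal weights 0.70, 1.24, 1.22 and 1.97. In tumour-marked cells the ratios of sums were 0.67, 1.26, 1.64 and 1.39, and with equal weights 0.79, 1.37, 1.70 and 1.07. In dendritic-marked cells they were 0.87, 2.15, 2.63 and 2.63, and with equal weights 0.83, 1.91, 2.04 and 2.09. H2B differed between these classes, at 1.25, 0.85 and 1.19. T-marked cells of 2000 to under 10000 UMIs were an exception for H1, with a ratio of sums of 1.17 (1.01 to 1.34), or 0.77 with equal weights. Macrophage-marked cells with either gene had the same directions, with ratios of sums of 0.87 for H1, 1.45 for H2A, 1.85 for H3 and 1.34 for H4. With equal weights these were 0.70, 1.41, 1.94 and 1.26. Macrophage-marked cells of 10000 UMIs and more (41 control, 12 IL_27) were an exception for H1, with a ratio of sums of 1.31 (1.10 to 1.56). The comparisons by class use different cells of the same 2 libraries, so they are not independent of each other.

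Not every class with Mki67 or Top2a had these directions. Neutrophil-marked cells had ratios of sums of 1.48 (1.35 to 1.62) for H1, 1.96 for H2A, 1.65 for H3 and 1.91 for H4, but 0.46, 0.55, 0.19 and 0.42 with equal weights. NK-marked cells had 0.92 (0.80 to 1.05) for H2A and 0.83 (0.62 to 1.11) for H3. In fibroblast-marked cells, 10 in each group, H2A was at 0.63 (0.53 to 0.74) and H4 at 0.86 (0.56 to 1.30). Cells of mixed class had 0.99 (0.83 to 1.16) for H3. Mast- or basophil-marked cells had ratios by type from 0.03 to 0.20, on 37 histone UMIs in IL_27.

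By gene, the IL_27 to control ratio in cells with Mki67 or Top2a was at least 1.5 for 15 of 62 members with at least 20 UMIs, against 6.31% of all genes tested, and at most 1 over 1.5 for 6, against 7.11%. The 15 were 6 H2A, 2 H2B, 4 H3 and 3 H4 genes, and the 6 were 3 H1 and 3 H4 genes. In T-marked cells with either gene, 16 of 53 members were at least 1.5-fold higher, against 11.5%, and 3 lower, against 10.3%. In dendritic-marked cells they were 27 of 41, against 9.84%, and 1 of 41, against 9.52%. In all tumour-marked cells, 20 of 47 were higher, against 6.13%, and 8 lower, against 6.25%. Over all cells the counts were 10 of 63, against 7.69%, and 3 of 63, against 6.04%. In cells without Mki67 or Top2a, 2 of 57 were higher, against 8.38%, and 16 lower, against 7.07%. In neutrophil-marked cells without either gene, 2 of 40 were higher, against 9.93%, and 19 lower, against 8.69%.

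Hist1h4d, an H4 gene with 99.1% unique 90-base stretches, stood at 56.3 CPM in control and 184 in IL_27 cells with Mki67 or Top2a, a ratio of 3.27 (3.03 to 3.54). The levels were 101 and 348 in T-marked cells with either gene, 18.3 and 97.3 in all tumour-marked cells, and 48.4 and 229 in dendritic-marked cells with either gene. IL_27 was the higher matrix in each of these 3 classes. Hist1h3c, an H3 gene, stood at 18.7 and 64.5 (ratio 3.45, 3.02 to 3.95), and at 39.8 and 134 in T-marked cells. Hist1h4c stood at 13.4 and 32.6 (2.44, 2.07 to 2.90), and Hist2h2ac, an H2A gene of chromosome 3, at 36.1 and 64.7 (1.79, 1.61 to 2.00). Counting each cell equally, the ratio was 1.67 for Hist1h4d, 1.71 for Hist1h3c and 0.74 for Hist1h4c. The H2A gene Hist1h2an had the highest ratio of the named members, 3.91 (3.32 to 4.62, or 2.00 with equal weights), at 12.01 and 46.9 CPM. It has 16.1% unique stretches, so reads shared with near-identical H2A copies make its value uncertain.

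Over all classes together, the 5 H1 genes with at least 20 UMIs in cells with Mki67 or Top2a were each lower in IL_27. Hist1h1e stood at 480 and 323 CPM in cells with Mki67 or Top2a (ratio 0.67, 0.65 to 0.70), Hist1h1b at 249 and 162 (0.65), Hist1h1d at 238 and 146 (0.61), Hist1h1a at 34.6 and 22.6 (0.65) and Hist1h1c at 298 and 218 (0.73). In T-marked cells the same 5 ratios were 0.72, 0.71, 0.63, 0.71 and 0.67. Of the H1 genes tested by class, all 5 were below 1 in dendritic-marked cells and all 3 in tumour-marked cells. Other classes differed: as ratios of sums, 4 of 5 were above 1 in neutrophil-marked and 2 of 5 in macrophage-marked cells. The other lists showed ratios near 1 in cells with Mki67 or Top2a: 0 of 40 S phase genes were at least 1.5-fold higher and 2 lower (median 0.92), and 0 of 25 G2 and M phase genes were past 1.5-fold in either direction (median 1.00). Npat had a ratio of 1.49 (1.25 to 1.79) and Slbp 1.02 (0.94 to 1.09). H1f0, which is no member, had 0.75 (0.73 to 0.78).

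**Figure D4:**
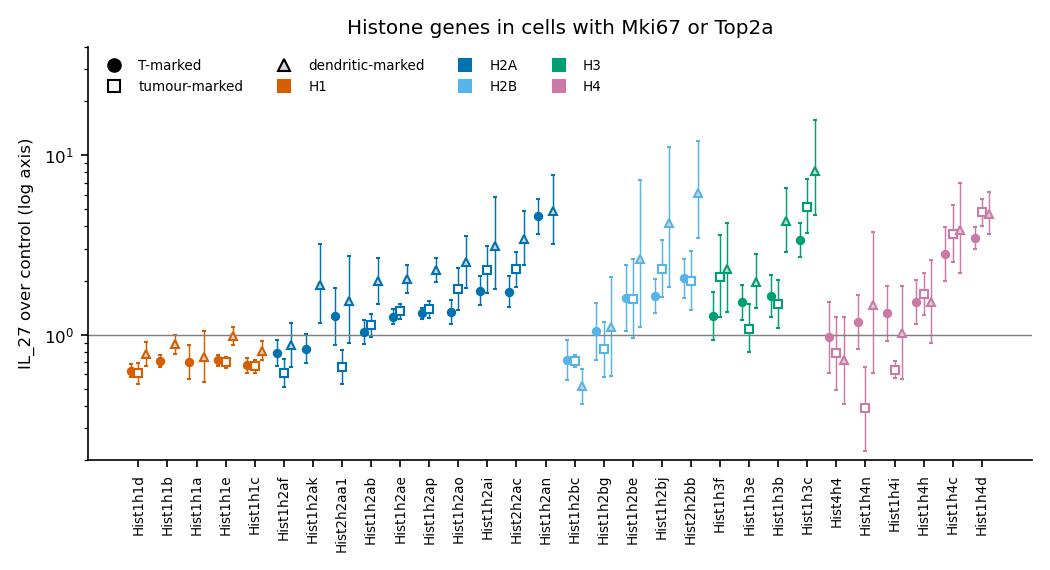
IL_27 over control (log axis) for the 30 histone genes with the most UMIs, in T-marked, tumour-marked and dendritic-marked cells with Mki67 or Top2a, coloured by histone type, with exact 95% counting intervals; genes with under 20 UMIs in a class, or 0 in a group, have no point there. The H1 genes lie below 1, at 0.63 to 0.72 in T-marked, 0.61 to 0.70 in tumour-marked and 0.75 to 0.98 in dendritic-marked cells. Hist1h4d lies above 1 in all 3 classes, at 3.45 in T-marked, 4.79 in tumour-marked and 4.72 in dendritic-marked cells.

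A run of neighbours on chromosome 13 was almost without counts in tumour-marked cells. The 8 consecutive members from Hist1h4k to Hist1h2bq (chr13:21750194-21810197, 60.0 kb), each with at most 10 UMIs in tumour-marked cells of both groups together, gave 6 UMIs in the 236 control and 8 in the 192 IL_27 tumour-marked cells, which is 0.61 (0.23 to 1.34) and 0.86 (0.37 to 1.69) CPM. In T-marked cells with Mki67 or Top2a they gave 2907 UMIs (981 CPM) in control and 1808 (878) in IL_27. With Mki67 or Top2a the tumour-marked cells gave 1.04 and 1.06 CPM. The UMIs were spread over 6 control and 7 IL_27 tumour-marked cells, with at most 1 and 2 in a cell. Fibroblast-marked cells, another class outside the blood lineage, had 304 UMIs (295 CPM) of these genes in control and 72 (57.7) in IL_27. That class rests on few cells: 10 in each group had either gene and held 1215 of its 1473 histone UMIs in control and 494 of 715 in IL_27, and 1 cell held 30.2% and 44.9%.

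Hist1h1b is the member of the run with the most UMIs, and gave 4 in tumour-marked cells of both groups together against 3374 in T-marked cells with Mki67 or Top2a. Hist1h2ak (83.6% unique stretches) gave 2 against 485, Hist1h3i 1 against 232 and Hist1h4k 0 against 67. Hist1h2bp gave 1 against 22. Hist1h2bq, which sets the far end, gave 1 against 2 (ratio of levels 0.13, 0.002 to 2.53, with 4.88% unique stretches), so its low count says nothing of tumour-marked cells, and without it the run ends at base 21789213 with Hist1h2bp. On the far side, Hist1h2ao gave 276 against 683, or 0.11 (0.092 to 0.12) of the T-marked level. On the near side the 5 members, from the run outward, were lower in tumour-marked cells too: Hist1h4j gave 11 against 20, Hist1h2bm 22 against 67, Hist1h3h 22 against 97, Hist1h2ai 239 against 491 and Hist1h2bl 3 against 22. Their levels were 0.14, 0.086 (0.051 to 0.14), 0.060 (0.036 to 0.096), 0.13 and 0.036 (0.007 to 0.12) of the T-marked levels, and the interval of Hist1h2bp (0.0003 to 0.074) overlapped those of Hist1h4j, Hist1h2bm, Hist1h3h and Hist1h2bl, while the 6 members of the run other than Hist1h2bp and Hist1h2bq had upper bounds of 0.017 and less. Hist1h2ao and Hist1h2ai have few unique stretches (7.16% and 11.2%), so their counts may hold reads of copies elsewhere. Hist1h1a, outside the run, gave 15 against 377, 0.010 (0.006 to 0.017) of the T-marked level. All these ratios set tumour-marked cells with and without Mki67 or Top2a against T-marked cells with either gene, so the cell sets are unlike. In tumour-marked cells with either gene, Hist1h2ai stood at 13.1 CPM in control and 30.1 in IL_27, against 74.6 and 131 in T-marked cells. Hist1h1a stood at 1.04 and 1.77 against 85.4 and 60.2. Over the set, 11 of 50 members in control and 8 of 51 in IL_27 were at least 10-fold lower in tumour-marked than in T-marked cells with Mki67 or Top2a, against 7.46% and 7.02% of genes. The run was noticed after the values were seen, and its cause was not tested.

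Other members were higher in tumour-marked cells. Hist1h2bc, an H2B gene, stood at 406 CPM in control and 251 in IL_27 tumour-marked cells, against 60.4 and 43.7 in T-marked cells with Mki67 or Top2a. Hist1h4i stood at 184 and 128 against 23.6 and 31.1. Over all classes together, these 2 genes also had folds under 2 between cells with and without Mki67 or Top2a. H2B was 43.1% of the histone UMIs of control tumour-marked cells without either gene, against 8.46% of those of T-marked cells.

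**Figure D5:**
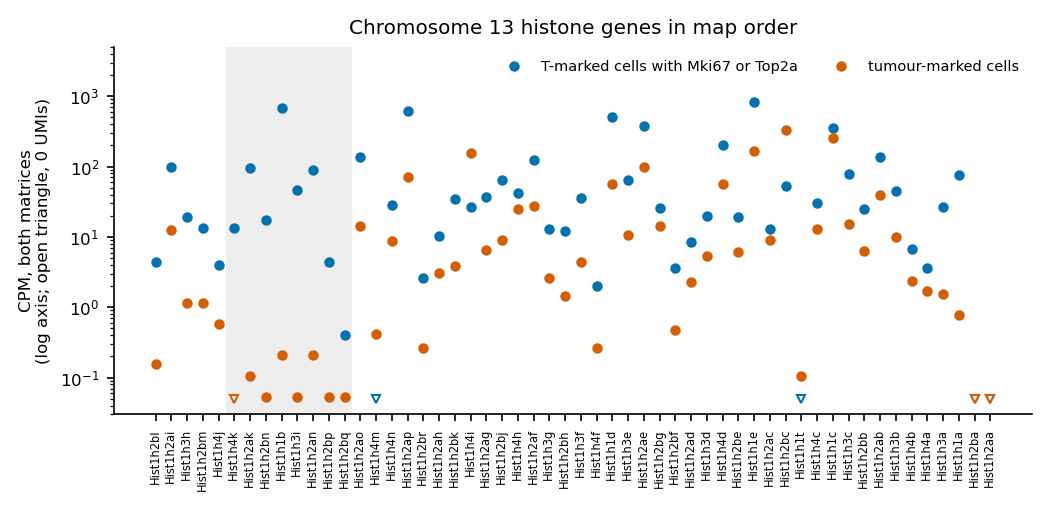
Level of the 54 chromosome 13 histone genes in map order (CPM over both groups, log axis; open triangles mark 0 UMIs), in T-marked cells with Mki67 or Top2a and in all tumour-marked cells; the grey band marks the run from Hist1h4k to Hist1h2bq. In the band the tumour-marked points lie at or under 0.21 CPM while Hist1h1b reaches 672 in T-marked cells, and Hist1h2bc and Hist1h4i lie higher in tumour-marked cells.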

How the data were processed

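The authors deposited UMI counts per gene and barcode, without normalization, as 1 matrix per group from a droplet 5′ kit (10x, chemistry version 2, according to the extract protocol). Per the submitters' processing notes, mm10 was the build and the tools were Cell Ranger 4.0 and Seurat 3.2.0; which annotation was used and how reads shared between copies were treated is not given in the sources used here. Cells with at least 200 genes, 500 UMIs and under 10% mitochondrial UMIs were kept (167 control and 193 IL_27 barcodes removed). Doublets were kept: Scrublet (scanpy 1.11.5) called 0 control and 167 IL_27 cells, so its calls were not used.

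A cell took the class with the most of its 10 markers seen, with at least 3, unless a second class with at least 3 came within 1 marker (mixed); this scoring rule was set after the data were seen. UMIs were summed over cells and divided by all UMIs of those cells (CPM). Intervals at 95% are exact Poisson for levels, conditional binomial for ratios and Clopper-Pearson for shares. Genes with at least 20 UMIs were counted past 1.5-fold between groups, 2-fold between cells with and without Mki67 or Top2a, and 10-fold between classes. The 30 members with the most UMIs were named, with the 4 genes of most UMIs of each other list and Npat, Casp8ap2 and Slbp. The interval code was tested on simulated data. The members and lists were chosen with earlier results of these data known. Uniqueness is the share of a member's 90-base stretches, from annotated transcripts, that occur in no other gene's transcripts. Python 3.11.15, numpy 2.4.6, pandas 2.3.3 and scipy 1.17.1 were used.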

Additional observations from a re-analysis of the deposited data

Results flagged for a closer look

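In cells with Mki67 or Top2a, 3 of the 30 named members were at least 1.5-fold higher in IL_27 in one cell class and at least 1.5-fold lower in another, with counting intervals off 1. The difference between the classes was not tested, and no group had the samples for a test of a stray sample. Hist1h1d, a linker histone, had a ratio of 2.41 (1.91 to 3.04) in neutrophil-marked and 0.61 (0.53 to 0.69) in tumour-marked cells. Hist1h4i had 1.54 (1.13 to 2.10) and 0.64 (0.57 to 0.71), and the H2A gene Hist1h2af 2.45 (1.56 to 3.90) and 0.61 (0.51 to 0.73), in the same classes. These are ratios of sums, and 24 IL_27 cells of at least 10000 UMIs held 2010 of the 2249 histone UMIs of the neutrophil-marked cells concerned. Counting each cell equally, the ratio of all members in those cells was 0.43 against 1.56 as a sum, that of H1 0.46 against 1.48, that of H2A 0.55 against 1.96 and that of H4 0.42 against 1.91. Neutrophil-marked cells with Mki67 or Top2a held 55.8 CPM of granule precursor markers in control and 2315 CPM in IL_27, whose part in these ratios was not tested.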

How the results depend on the processing

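No paired analysis was possible because each group has 1 matrix whose columns carry no replicate number, and for the same reason no replicate could be left out. The summed histone level kept its direction between cells with and without Mki67 or Top2a under each alternative run, in both groups. In what follows 4 values stand for the IL_27 to control ratio in all cells, the same in cells with Mki67 or Top2a, and the fold with over without either gene in control and in IL_27. They were 0.88, 0.93, 4.63 and 5.65 after removing 8% of each matrix by highest doublet score, 0.70, 0.87, 3.27 and 4.36 as a mean over cells, 0.76, 0.91, 5.03 and 6.40 with cells thinned to 1000 UMIs, and 0.97, 1.02, 5.10 and 7.01 without Hist1h1c. The last 3 of the 4 were 0.96, 5.29 and 6.77 with at least 2 UMIs of Mki67 and Top2a together, and 1.08, 5.40 and 7.71 without tumour-, fibroblast- and endothelial-marked cells. Without the cell with the most histone UMIs in each matrix, an alternative chosen after seeing the data, the 2 folds were 4.06 and 5.35. No mitochondrial limit and leaving out shared barcodes left the 4 values within their intervals.

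As a mean over cells, the IL_27 to control ratio turned direction in all cells for H2A (0.88), H3 (0.69), H4 (0.72), Hist1h2ae (0.72), Hist2h2ac (0.89), Hist1h2ai (0.84), Hist1h4c (0.88), Hist1h3b (0.60), Hist1h2bj (0.53) and Hist2h2bb (0.87), and in cells with Mki67 or Top2a for H3 (0.88), H4 (0.999), Hist1h3e (0.86), Hist1h4h (0.80), Hist1h4c (0.74), Hist1h3b (0.82), Hist1h2bj (0.87) and Hist2h2bb (0.92). The fold of Hist1h2be in control became 1.14. Thinned to 1000 UMIs, which leaves few histone UMIs, it turned in all cells for H2A (0.98), H3 (0.93), H4 (0.78), Hist1h2ae (0.83), Hist1h3b (0.58) and Hist1h2bj (0.76), and in cells with Mki67 or Top2a for Hist1h2ae (0.90), Hist2h2ac (0.99), Hist1h3e (0.68), Hist1h4c (0.90), Hist1h3b (0.90), Hist1h1a (1.04) and Hist1h4n (1.04). The thinned folds of Hist1h2bc and Hist2h2aa1 in IL_27 became 0.86 and 1.03 and that of Hist1h2be in control 1.27. With at least 2 UMIs of Mki67 and Top2a, Hist1h2bc had a ratio of 1.05 and a control fold of 0.73, and Hist1h4i a control fold of 0.98. With at least 4 markers, the summed ratio of macrophage-marked cells with Mki67 or Top2a was 0.90, against 1.15 with 3. The causes were not tested. Counts of members past a fold stayed within 1.5 times under other minimum counts. The run on chromosome 13 gave 5 and 11 UMIs in tumour-marked cells with at least 4 markers, and 6 and 8 without the cells of highest doublet score.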
